A study of Homo sapiens with 2 samples.

Results

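The matrix metalloproteases MMP2, MMP3, MMP13 and MMP14, the tissue inhibitors of metalloproteases TIMP1, TIMP2 and TIMP3, the membrane-anchored inhibitor RECK and the metalloprotease inducer basigin (BSG) were followed in the established human glioblastoma line A172 and in a drug-resistant derivative. These 9 genes were taken by name from a table of 15603 genes, and MMP3 was chosen because its level was already known to be higher in the resistant cells, so its values are a description. The first group is the parental A172 line without temozolomide (TMZ), the alkylating drug used against glioblastoma. The second is the clone labelled A172-r#6, selected by TMZ and labelled as with TMZ. Each group held 1 RNA sequencing library, made with a stranded mRNA kit, so no difference below has a replicate check, and clone, selection and drug exposure cannot be told apart.

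Matrix metalloproteases are zinc enzymes that cut collagens, proteoglycans and other proteins outside the cell, and most are made as inactive precursors. TIMPs block the active site of the mature enzymes, and the balance of enzyme and inhibitor sets how much matrix is cut. On the cell surface, MMP14 bound to TIMP2 forms the receptor that activates the MMP2 precursor, an arrangement studied widely in glioma cell invasion. In bulk RNA, fewer cells that express a gene and less RNA per cell cannot be told apart.

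The coding stretch for the zinc-binding site is shown first because it is what the proteases have in common and where they differ from each other. It is given for the 4 proteases and for MMP10 and MMP1, the neighbours of MMP3 on chromosome 11, from GENCODE release 29 transcripts (GRCh38). Each stretch has 33 bases, 5′ to 3′ on the coding strand, and capitals mark the codons of the 3 zinc-binding histidines and of the catalytic glutamate.
MMP3: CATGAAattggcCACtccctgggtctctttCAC
MMP10: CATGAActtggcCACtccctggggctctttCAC
MMP1: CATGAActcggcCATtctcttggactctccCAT
MMP13: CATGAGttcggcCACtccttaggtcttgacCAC
MMP2: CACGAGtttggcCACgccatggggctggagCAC
MMP14: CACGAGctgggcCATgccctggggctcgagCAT
The stretch lies in exon 5 of MMP3 (chr11:102840535-102840567, minus strand), of MMP13 (chr11:102952115-102952147, minus strand) and of MMP14 (chr14:22843283-22843315, plus strand), and in exon 8 of MMP2 (chr16:55491827-55491859, plus strand). It lies in exon 5 of MMP10 (chr11:102776718-102776750, minus strand) and of MMP1 (chr11:102795549-102795581, minus strand) too. MMP3 and MMP10 had 31 of the 33 bases in common, and MMP3 had 24 in common with MMP13, 23 with MMP2 and 22 with MMP14. Over the whole aligned coding sequence MMP3 was 85.2% identical to MMP10, with a longest exact run of 96 bases, and 62.4% identical to MMP13. Reads from such a run cannot be assigned to 1 of the 2 genes, so the value of MMP10, the less abundant one, is uncertain. That of MMP3 is uncertain too where the 2 levels are close. Of all 50-base words in the MMP3 transcript, 3.0% also occurred in a transcript of another gene, and that gene was MMP10. MMP13, MMP14, TIMP1, TIMP3, RECK and BSG had no such word, MMP2 had 3.44% and TIMP2 13.0%.

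The values are FPKM, sequenced fragments relative to transcript length and library depth, so levels can be set side by side between genes. A gene was tested when it had 1 or more FPKM in either library, and called when log2 of (resistant + 1) over (parental + 1) was at least 1 in size, a 2-fold difference. This pseudocount shrinks the folds of weakly expressed genes. Over the 13937 tested genes, 640 (4.59%) were called higher and 532 (3.82%) lower in the resistant library, with a median log2 fold of 0.04. The higher genes made up 54.6% of calls, and 41.4% when both libraries were scaled to a common sum as in TPM. That scaling also lowered the effective pseudocount and filter, so that all 15603 genes were tested. The median fold shifted by -0.12, between unlike sets of genes. With upper quartile scaling the higher genes made up 45.9%. All 9 members were tested, but MMP3 and MMP13 passed only through the resistant library, where they are high. MMP3, MMP13 and TIMP3 were called higher, none was called lower and 6 were not called. The choice of MMP3 for its rise enters this count, so nothing is read from it. The median log2 fold of the 9 genes was 0.03.

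**Figure D1:**
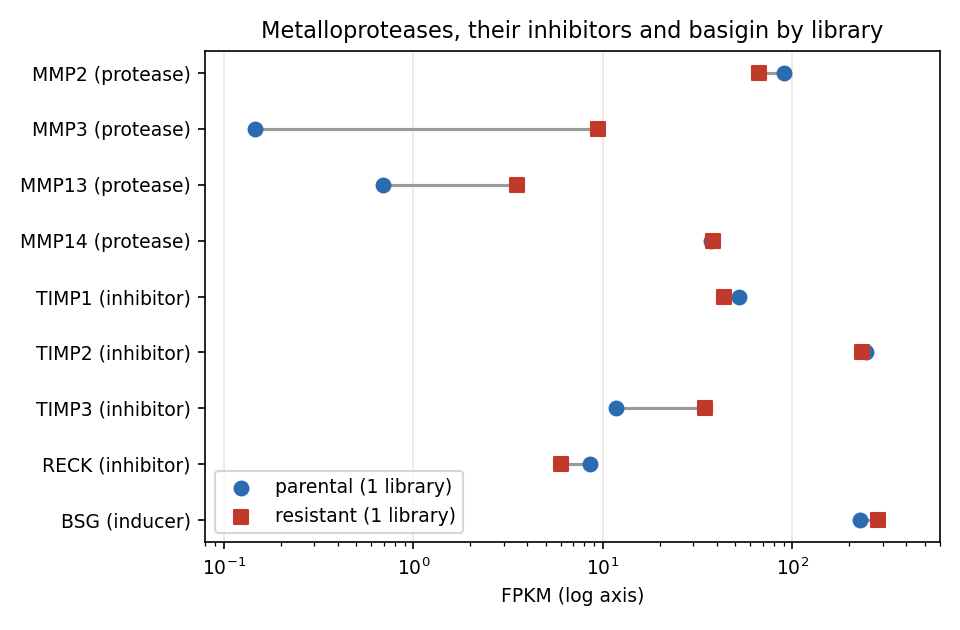
Level of each of the 9 genes in FPKM (log axis) in the parental library (circle) and the resistant library (square), 1 library each. MMP3, MMP13 and TIMP3 have the widest gaps, and the most abundant genes, TIMP2 and BSG, lie between 226.9 and 281.8 FPKM in both libraries.

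The secreted stromelysin MMP3, which cuts proteoglycans, laminin and fibronectin and can activate other MMP precursors, had 0.146 FPKM in parental and 9.39 in resistant cells. The FPKM ratio was 64.5, and the log2 fold with the pseudocount was 3.18. MMP10, which can share reads with MMP3, had 0.126 FPKM in the parental library, so the parental MMP3 value and the ratio are uncertain. In the parental library 1.37% of listed genes were below MMP3, and in the resistant library 57.0% were. Its fold was the third highest of the tested genes, and 0.10% of them had a fold as large in either direction. The size depends on the pseudocount, since the log2 fold was 5.27 with 0.1 and 1.48 with 5. MMP3 (ENSG00000149968) lies at chr11:102835801-102843803 on the minus strand (GRCh38), and it shares exons with the pseudogene WTAPP1 on the opposite strand, which was not analysed here.

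The collagenase MMP13, which cleaves fibrillar collagen, had 0.695 FPKM in parental and 3.53 in resistant cells. The log2 fold was 1.42 and the FPKM ratio 5.08, so MMP13 stayed well below MMP3 in the resistant library while being above it in the parental one. With a pseudocount of 5 the log2 fold was 0.58 and the call was lost. MMP13 (ENSG00000137745, chr11:102942995-102955734, minus strand) shares no exon with another gene.

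MMP2 and MMP14 were the abundant proteases in both libraries. The gelatinase MMP2, which degrades denatured and basement membrane collagen, had 90.0 FPKM in parental and 66.4 in resistant cells (log2 fold -0.43), higher than 96.9% and 94.9% of listed genes. Its activator MMP14, a membrane-anchored protease, had 37.4 and 38.1 FPKM (log2 fold 0.03). MMP14 thus stood at nearly the same level in both, and 96.0% of tested genes had a fold at least as large in size. Its sign turned under both scalings, to -0.08 with a common sum and -0.06 with upper quartile scaling. MMP2 (ENSG00000087245) lies at chr16:55389700-55506691 on the plus strand and MMP14 (ENSG00000157227) at chr14:22836557-22849027 on the plus strand. MMP2 shares exons with RP11-212I21.3 on the same strand, which had 1.29 and 0.297 FPKM.

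The 4 inhibitors had different levels. TIMP2 had 244 FPKM in parental and 234 in resistant cells (log2 fold -0.06), the highest of the TIMPs in both. TIMP1, a secreted inhibitor of most MMPs, had 52.6 and 43.4 FPKM (log2 fold -0.27). RECK, which holds several MMPs in check at the cell surface, had 8.55 and 6.01 FPKM (log2 fold -0.45). These 3 inhibitors lay below 2-fold, each a little lower in the resistant library. TIMP3, the inhibitor that binds to the matrix and also blocks ADAM proteases, had 11.8 FPKM in parental and 34.5 in resistant cells. Its FPKM ratio was 2.93 and its log2 fold 1.48, and it was called under every alternative except the 4-fold threshold. Some alternatives, such as a 1.5-fold threshold, cannot remove a call. Of the tested genes, 2.39% had a fold as large in size.

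TIMP1 (ENSG00000102265) lies at chrX:47582313-47586789 on the plus strand, within the span of SYN1. TIMP3 (ENSG00000100234) lies at chr22:32801701-32863043 on the plus strand, within the span of SYN3, and neither shares an exon with another gene. TIMP2 (ENSG00000035862, chr17:78852977-78925387, minus strand) shares exons with CEP295NL on the same strand, which had 2.63 and 2.07 FPKM, far under TIMP2. It also shares exons with RP11-323N12.5 on the opposite strand, which had 0.608 and 0 FPKM. RECK (ENSG00000122707) lies at chr9:36036433-36124451 on the plus strand.

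BSG, the immunoglobulin-family protein that stimulates MMP production in neighbouring cells and carries monocarboxylate transporters to the membrane, had 226.9 FPKM in parental and 281.8 in resistant cells. The log2 fold was 0.31, and 54.0% of tested genes had one as large in size. BSG (ENSG00000172270, chr19:571277-583493, plus strand) was among the most abundant genes, above 99.2% and 99.3% of those listed. It shares exons with AC009005.1 on the opposite strand, which was not analysed here.

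**Figure D2:**
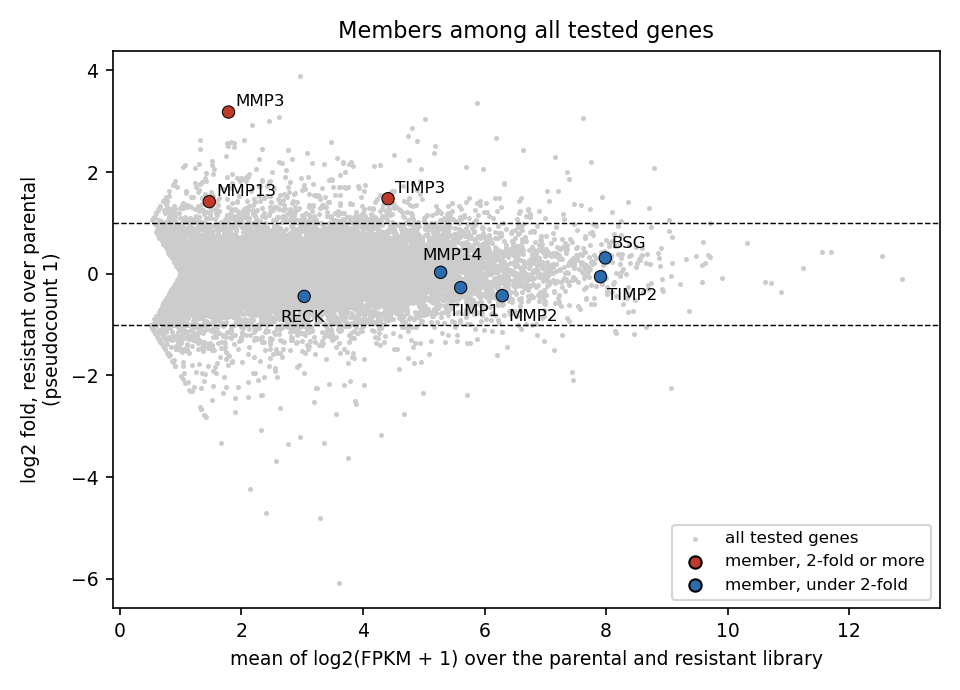
Log2 fold of resistant over parental (pseudocount 1) against the mean of log2(FPKM + 1) over both libraries, for all tested genes (grey) and the 9 members. MMP3, MMP13 and TIMP3 lie above the dashed line at 1, and the other 6 lie between the lines at 1 and -1.

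MMP3 had a q-value of 4.92e-10 in the authors' deposited table, TIMP3 one of 0.00498 and MMP13 one of 0.0246. For the other 6 genes the q-values in the authors' deposited table ran from 0.265 for MMP2 to 0.977 for MMP14. The authors' test is not stated, and with 2 libraries it compares those libraries and not the conditions. MMP3 was picked for its rise in these same libraries, and MMP13 passed only through the resistant one. Nothing is read from their q-values.

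Because FPKM are per length, the members can also be compared within a library. The level of MMP3 was 0.277% of that of its inhibitor TIMP1 in parental and 21.7% in resistant cells. Against TIMP3, which was higher as well, it was 1.24% and 27.2%, and against MMP2 0.162% and 14.1%. MMP3 thus stayed below each of these genes in both libraries. The ratio of MMP2 to TIMP2 was 0.368 in parental and 0.283 in resistant cells, and that of MMP14 to TIMP2 was 0.153 and 0.163. TIMP3 stood at 22.4% of TIMP1 in parental and at 79.6% in resistant cells.

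The summed levels of each family were close in both libraries. The 12 measured MMPs summed to 175.7 FPKM in parental and 171.8 in resistant cells, and the 4 TIMPs to 315.1 and 319.4. The make-up differed more: MMP2 made up 51.2% of the MMP sum in parental and 38.7% in resistant cells, and MMP3 0.0829% and 5.46%. MMP14 held 21.3% and 22.2%. Within the TIMPs, TIMP2 made up 77.5% and 73.4% and TIMP3 3.73% and 10.8%. RNA levels do not give the amount of active enzyme, since the precursors must first be cleaved.

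**Figure D3:**
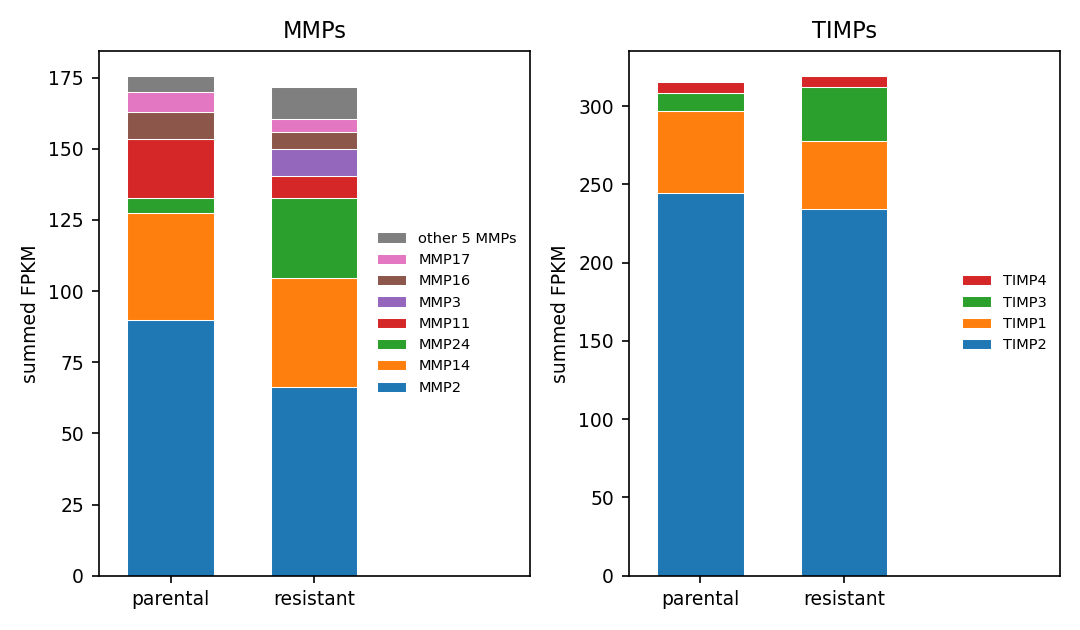
Summed FPKM of the 12 measured MMPs (left) and the 4 TIMPs (right), stacked by gene, in the parental and resistant libraries. The totals are 175.7 and 171.8 FPKM for the MMPs and 315.1 and 319.4 for the TIMPs, with smaller MMP2 and MMP11 and larger MMP24 and MMP3 shares in the resistant library.

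Of 23 MMP genes considered, 12 had values and 11 were not analysed here, among them MMP9 and MMP7. Of the 11 tested, MMP3, MMP13 and MMP24 were called higher and MMP11 was called lower, against 4.59% and 3.82% of all tested genes. MMP3 was picked for its rise and MMP13 passed only through the resistant library, so nothing is read from this count. MMP24, a membrane-anchored protease of the nervous system, had 5.46 FPKM in parental and 28.0 in resistant cells (log2 fold 2.17). It shares exons with MMP24-AS1 on the opposite strand, which had 13.0 and 23.0 FPKM, and whether strand was used in counting is not stated, so reads from the stretch they share cannot be told apart. Of the 50-base words of the MMP24 transcript, 18.7% also occurred in a transcript of another gene on either strand. MMP11, another stromelysin by name, had 20.6 and 7.94 FPKM (log2 fold -1.27). MMP24 and MMP11 had q-values of 3.62e-06 and 0.0193 in the authors' deposited table. With a pseudocount of 5 the fold of MMP11 was -0.98, under the threshold. TIMP4 had 6.53 and 6.998 FPKM (log2 fold 0.09).

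**Figure D4:**
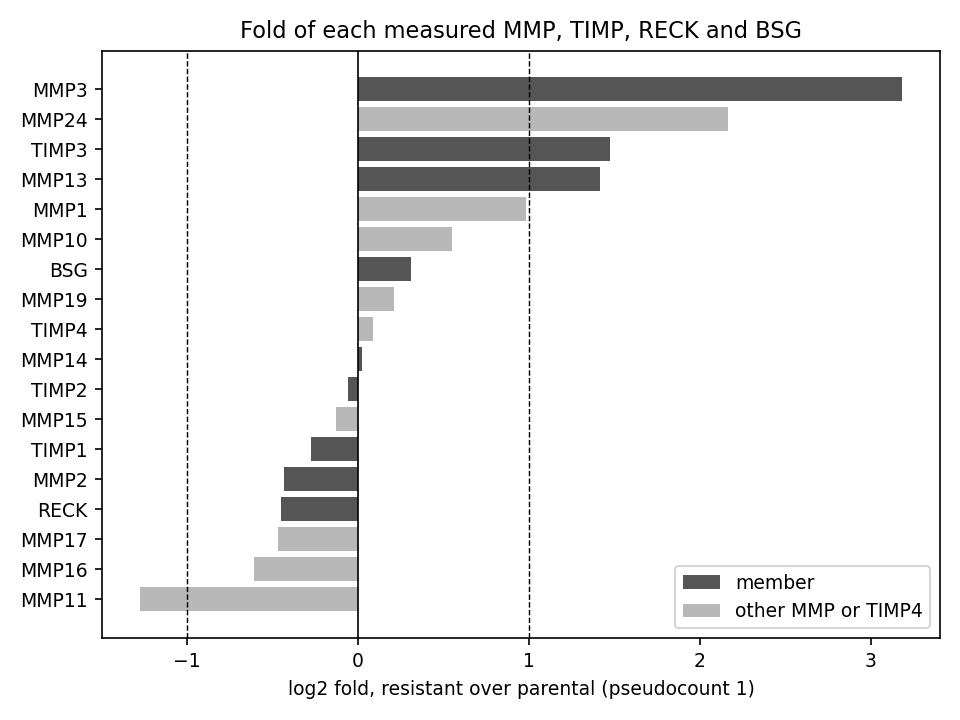
Log2 fold of resistant over parental (pseudocount 1) for the 9 members (dark) and the other measured MMPs and TIMP4 (light), with dashed lines at 1 and -1. MMP3 (3.18) and MMP24 (2.17) are the highest and MMP11 (-1.27) is the lowest.

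MMP3 and MMP13 belong to a run of 9 MMP genes on chromosome 11 (chr11:102520508-102955734, GRCh38), of which 4 had values: MMP10, MMP1, MMP3 and MMP13. The interstitial collagenase MMP1 had 1.14 FPKM in parental and 3.24 in resistant cells (log2 fold 0.99), just under the threshold. It was called with a pseudocount of 0.1 (log2 fold 1.43) and with the libraries scaled to a common sum (1.19). That scaling here also lowers the effective pseudocount, and with upper quartile scaling MMP1 was not called. MMP10, the stromelysin closest in sequence to MMP3, had 0.126 and 0.651 FPKM and did not pass the filter. Since MMP3 was picked for its rise, MMP13 passed only through the resistant library and MMP10 can share reads with MMP3, nothing is read from the direction of these 4 genes together. MMP1 shares exons with WTAPP1 on the opposite strand. MMP1 and MMP10 had q-values of 0.215 and 0.155 in the authors' deposited table.

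By closeness over log2(FPKM + 1) of both libraries, the gene most like MMP3 was the ubiquitin ligase RNF144B, with 0.440 and 7.68 FPKM (distance 0.42). TSPY3 and TSPY10, copies of a multicopy family whose reads can be shared, came next at 0.43 and 0.46. With 2 libraries this likeness says no more than that the levels are close.

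Promoters are shown for TIMP3 and TIMP1, which differ in fold, and for MMP10, the neighbour of MMP3. The sequences are RefSeq's (GRCh38.p14), from 250 bases before to 50 after the transcription start. Of the 9 members, 5 matched an entry, in 6 windows, and MMP2, MMP3, MMP13 and TIMP2 were not matched. Capitals mark TGANTCA, the binding motif of AP-1, and GGGCGG, the GC box, on either strand.
TIMP3: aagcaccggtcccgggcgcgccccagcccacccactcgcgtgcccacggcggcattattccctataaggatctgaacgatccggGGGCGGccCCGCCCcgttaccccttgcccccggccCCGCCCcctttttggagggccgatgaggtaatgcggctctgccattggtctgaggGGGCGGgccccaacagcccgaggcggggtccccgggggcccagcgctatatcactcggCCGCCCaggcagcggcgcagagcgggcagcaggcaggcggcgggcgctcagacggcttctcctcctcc
TIMP1: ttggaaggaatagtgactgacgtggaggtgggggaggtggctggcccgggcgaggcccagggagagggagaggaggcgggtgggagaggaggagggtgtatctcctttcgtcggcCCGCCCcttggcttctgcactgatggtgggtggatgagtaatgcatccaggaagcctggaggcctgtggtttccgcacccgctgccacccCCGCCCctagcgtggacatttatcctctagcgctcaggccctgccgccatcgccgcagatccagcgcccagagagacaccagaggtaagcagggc
MMP10: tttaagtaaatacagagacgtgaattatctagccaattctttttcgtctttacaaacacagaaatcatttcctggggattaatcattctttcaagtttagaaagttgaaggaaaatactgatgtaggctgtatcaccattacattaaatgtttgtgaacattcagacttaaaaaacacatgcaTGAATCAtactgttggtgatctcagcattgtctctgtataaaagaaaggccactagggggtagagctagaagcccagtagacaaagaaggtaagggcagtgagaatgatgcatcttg
The windows are chr22:32801455-32801754 (plus strand) for TIMP3, chrX:47582186-47582485 (plus strand) for TIMP1 and chr11:102780579-102780878 (minus strand) for MMP10. GGGCGG occurred 5 times in the TIMP3 window and 2 times in that of TIMP1, and was found in 5 of the 6 member windows against 45.0% of 35116 RefSeq promoters of this length. TGANTCA, which reads the same on both strands and does not overlap GGGCGG, was found in 0 of the 6 and in 7.71% of all. MMP10 held 1 match, with its first base at position -67 from the start, and no GGGCGG. The TIMP3 window held 31 CG dinucleotides, that of TIMP1 16 and that of MMP10 2, with a median of 14 over all promoters. These matches describe the letters of the windows.

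Other genes of matrix proteolysis were read from 13 lists of 192 genes, of which 150 had values and 140 were tested. Of these, 18 (12.9%) were called higher and 15 (10.7%) lower, with a median log2 fold of 0.15, against 4.59% and 3.82% of all tested genes. With upper quartile scaling the balance turned, to 12 higher and 17 lower. No test compares them with other genes. The lists were chosen with earlier results of these data known, so nothing is read from the gap to the shares of all genes. Of 8 tested genes of the plasminogen system, whose protease plasmin activates MMP precursors, 3 were higher and 1 was lower (median 0.64). The urokinase gene PLAU had 3.72 FPKM in parental and 9.74 in resistant cells, and SERPINE2, an inhibitor of serine proteases such as urokinase and thrombin, had 68.6 and 152. The protease inhibitor TFPI2 had 0.320 and 1.66 FPKM, and SERPINF1 was lower, at 4.53 and 0.774. Urokinase and SERPINE2 were thus both higher, and TFPI2 was not called with upper quartile scaling (log2 fold 0.96).

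Among matrix substrates the calls lay mostly on the lower side. Of 15 tested interstitial collagen and matrix genes, 6 were lower and 1, fibronectin FN1, was higher (median -0.58). Over all tested genes 4.59% were called higher and 3.82% lower. FN1, named after its values were seen, had 4.45 FPKM in parental and 10.3 in resistant cells, and was not called with upper quartile scaling (log2 fold 0.97). Periostin (POSTN) had 46.1 and 2.83 FPKM, COL1A2 had 1165 and 245, COL1A1 33.5 and 6.53 and fibrillin FBN1 362 and 83.8. Of 12 basement membrane genes, among them known substrates of MMP2 and MMP3, only COL4A5 was called, at 4.72 and 0.974 FPKM (median -0.35). LAMA4, named after its values were seen, had 42.3 and 21.0 FPKM (log2 fold -0.98). It was called lower with both scalings and with a pseudocount of 0.1. Among other regulators, 2 of 9 were lower: PCOLCE, an enhancer of procollagen processing, with 82.9 and 31.4 FPKM, and the serine protease HTRA1, with 9.60 and 2.595.

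The list of AP-1 and ETS factors, which bind MMP promoters, also holds RUNX2, a factor of neither family. It had 4 of 17 members higher and 2 lower (median 0.23). RUNX2, named after its values were seen, was 1 of the 4, with 4.76 FPKM in parental and 11.8 in resistant cells. The shares over all tested genes were 4.59% higher and 3.82% lower. With upper quartile scaling 3 of these factors were higher and 2 lower. FOSL1 had 1.98 FPKM in parental and 12.5 in resistant cells and ATF3 11.6 and 37.7, while FOS had 4.23 and 0.336 and ETV1 10.02 and 3.47. FOSL1 and FOS thus lay on opposite sides. Of 19 cytokines, growth factors and receptors known to induce MMPs, 5 were higher and 1 was lower (median 0.74). With upper quartile scaling 3 of them were higher and 1 was lower. The receptor MET had 9.38 and 74.6 FPKM, IL11 2.42 and 8.14 and TGFBR1 11.01 and 24.8, and TGFBR2, its partner receptor, was lower at 65.4 and 8.83.

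The lists of other proteases held at most 1 call each, too few to set against the 4.59% and 3.82% over all genes. Of 9 tested ADAM genes only ADAM11, which lacks a working protease site, was called, lower at 10.4 and 1.20 FPKM (median 0.17). Of 9 ADAMTS genes only ADAMTS16 was called, at 1.75 and 4.52 FPKM and a log2 fold of 1.004, at the threshold (median -0.22), and it was not called with upper quartile scaling (0.93). ADAMTS10, named after its values were seen, had 13.6 and 6.33 FPKM (log2 fold -0.99). It was called lower with both scalings and with a pseudocount of 0.1. The lysosomal protease CTSD, at 267 and 657 FPKM, was the only one called of 9 cathepsins and cystatins (median 0.22). None of 3 pro-protein convertases, which cut the precursor of MMP14, was called: PCSK6 had 1.07 and 2.54 FPKM and PCSK7 10.4 and 7.71 (median 0.04). PCSK6 was called higher with a pseudocount of 0.1 (log2 fold 1.18).

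Basigin partners stayed under 2-fold in all 8 tested genes (median 0.44). The amino acid transporter subunit SLC3A2 had 161 FPKM in parental and 279 in resistant cells, and the lactate transporter SLC16A1, which BSG carries to the membrane, had 32.1 and 54.5. Of 14 tested partners of MMP14 and the TIMPs at the cell surface, CLDN1 (0.968 and 6.26 FPKM) and THBS2 (42.1 and 99.5) were higher and none was lower (median 0.10). Both lists are too short to set against the 4.59% higher and 3.82% lower over all tested genes.

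**Figure D5:**
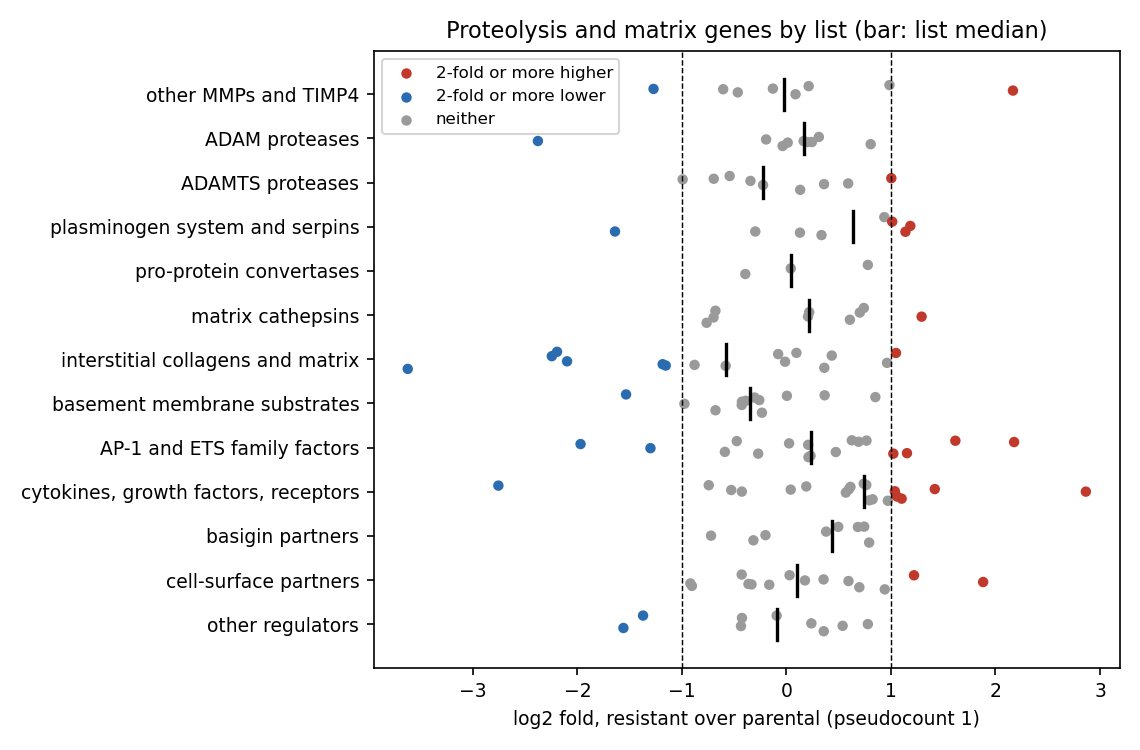
Log2 fold of resistant over parental (pseudocount 1) for each tested gene of the 13 lists, with a bar at the list median and dashed lines at 1 and -1. Genes of cytokines, growth factors and receptors have the highest median (0.74) and interstitial collagen and matrix genes the lowest (-0.58).

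Marker levels of other cell types were read beside these results. The marker lists are too short to set against the 4.59% higher and 3.82% lower over all tested genes. Of 8 myeloid and lymphoid markers 2 had values, PTPRC with 1.83 FPKM in parental and 0.485 in resistant cells and CD68 with 0.690 and 0.434, summing to 2.52 and 0.919. Of 8 fibroblast and pericyte markers all had values, with 3 called lower (COL1A1, COL1A2 and 1 of 2 rows of RGS5) and ACTA2 called higher, and their sum was 1325 and 344.9 FPKM. COL1A2 made up most of that sum, which was 160.5 and 99.8 FPKM without it. DCN had 6.03 and 5.96 FPKM, and LUM had 16.4 and 32.997 and was not called (log2 fold 0.96). Of 6 epithelial markers 5 had values, with KRT8 and ESRP1 called higher, and a sum of 614 and 1618. Of 8 astrocyte markers 2 had values, CLU (101 and 53.3 FPKM) and GLUL (38.0 and 19.9), and GFAP, the defining one, was not analysed here. Of 6 endothelial markers 3 had values, summing to 11.03 and 1.73 FPKM, with TEK called lower at 9.53 and 1.56 and PECAM1 and CDH5 under 1 FPKM in both libraries. Of 5 neural stem markers 3 had values, summing to 37.4 and 8.76 FPKM, with NES (33.7 and 5.08) and SOX2 (2.23 and 0.253) called lower and OLIG2 not called (1.43 and 3.42). The part of these shifts in the MMP and TIMP values was not tested.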

How the data were processed

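RNA of 1 library per group was sequenced with a stranded mRNA kit, per the labels' protocols. The deposited table holds FPKM per gene, per the file headers. It also holds the authors' log2 ratio with a p-value and q-value, per the file headers, and the authors' test is not stated. Which aligner, counter, annotation and build were used is not given in the sources used here. For genes with 1 transcript, the lowest values multiplied by its length showed no steps of whole reads, so the depth is unknown and no counting interval is given. Library sums were 299594 FPKM (parental) and 323932 FPKM (resistant). Every gene had at least 0.544 FPKM in its higher library.

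Calls used a pseudocount of 1, a filter of 1 FPKM in either library and a threshold of 2-fold. The rule was run on simulated data with planted changes above the threshold in well expressed genes. That run does not check calls at low values or the lack of replicates. With 1 library per group there is no p-value, SE or replicate spread. GENCODE release 29 (GRCh38) held 15531 of the identifiers, and 96.7% of its genes lay inside the listed locus, so its coordinates are given. The start was the same for 63.3%, and the listed loci of MMP3, TIMP1, TIMP3 and BSG were wider than the GENCODE genes. Shared words and coding identity used the first named transcript of each gene (Python 3.11.15, Biopython 1.88).

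Members and lists were chosen with earlier results of these data known, and 1 listed gene, left out of its list, is not reported here. Named genes were all members, up to 4 called genes of each list by size of fold (or 1 or 2 where none was called), the listed cluster neighbours and the 3 genes closest to MMP3. Alternatives were pseudocounts of 0.1 and 5, no filter, a filter of 5 FPKM, 2 scalings and thresholds of 1.5 and 4-fold.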

Additional observations from a re-analysis of the deposited data

How the results depend on the processing

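No paired analysis was possible because each group has 1 library, and no library could be left out. MMP3 and TIMP3 were called higher under every alternative, except TIMP3 at the 4-fold threshold, and no member was called lower under any. The pseudocount of 0.1, the lack of a filter and the 1.5-fold threshold cannot remove a call, by construction. MMP3 was picked for its rise, so nothing is read from its calls here. MMP13 was not called with a pseudocount of 5, with a filter of 5 FPKM, which it does not pass, or at 4-fold, where MMP3 was the 1 member called. The ratios between members within a library do not depend on scaling, by construction. Over all genes, the higher and lower calls were 1076 and 1029 with a pseudocount of 0.1, 220 and 114 with 5, 994 and 1407 with both libraries scaled to a common sum (which here also lowers the effective pseudocount and filter), 2020 and 1674 at 1.5-fold and 61 and 59 at 4-fold. They were 466 and 282 with a filter of 5 FPKM and 523 and 616 with upper quartile scaling. With upper quartile scaling 6 genes of the lists lost their call and 2 gained one, giving 12 higher and 17 lower. Over the 13 lists, the higher and lower calls were 7 and 8 with a pseudocount of 5, 45 and 29 at 1.5-fold and 3 and 6 at 4-fold. Without counts, the precision of low values such as those of MMP3, MMP13 and MMP10 in the parental library cannot be given.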

Other observations

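The genes on both sides of the MMP run on chromosome 11 were read after the values of MMP3 were seen. Within 1 Mb on either side, 8 genes were tested, and none was called higher or lower (median log2 fold 0.23). Over all tested genes 4.59% were called higher and 3.82% lower, so no call among 8 genes is close to those shares. YAP1, a transcription cofactor, had 21.7 FPKM in parental and 22.6 in resistant cells. The inhibitor of apoptosis gene BIRC2 had 28.5 and 38.2 FPKM, and its neighbour BIRC3 had 2.61 and 1.82. TMEM123, the nearest tested gene before the run, had 12.3 and 23.9 FPKM (log2 fold 0.90), and DCUN1D5, the nearest after it, had 11.5 and 16.7 (0.50). The growth factor gene PDGFD, farther on, had 12.8 and 8.76 FPKM (-0.50). The flanking genes thus lay in both directions and under 2-fold, and nothing is read from the absence of calls among them.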
